A study of Mus musculus with 8 samples.

Results

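The core clock genes Per1, Per2, Per3, Arntl, Clock, Cry1, Cry2, Nr1d1, Nr1d2 and Dbp were followed in mouse peripheral blood after restraint. They were taken by gene symbol from the deposited table of read counts, where 10 of the 21878 symbols were members, and 10 of the 10 were among the 11718 genes that had enough reads to be tested. All mice were female, wild-type (WT) C57BL/6 animals 6 to 8 weeks of age. The stress group was held for 6 hours in a ventilated tube without food and water, and the littermates of the control group stayed in their cage, also without food and water, so the loss of food and water was shared by both groups. Each group had 4 samples, and since the labels do not tie samples to separate animals, the p-values measure only the spread between these samples, which may be technical. The hour of the day at which blood was drawn is not given in the sources used here, and 1 collection time cannot separate a change in level from a shift in the phase of a rhythm.

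The mammalian clock is a feedback loop of transcription. CLOCK and ARNTL (also called BMAL1) pair and bind E-boxes in promoters, where they switch on the Per and Cry genes, whose proteins return to the nucleus and block CLOCK and ARNTL. The same pair drives Nr1d1 and Nr1d2, which encode the REV-ERB receptors that repress Arntl through ROR elements, and Dbp, whose product activates genes through D-boxes. Per1 is also known to be induced directly by the glucocorticoid receptor. White blood cells carry such a clock, and mature red cells, which have no nucleus, do not transcribe one.

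Control libraries held 31471145 to 39014775 counted reads, more than the 25978683 to 29655725 of the stress libraries. The haemoglobin genes of red cells took 51.9% to 63.8% of the control reads and 61.2% to 75.5% of the stress reads, and control replicate 3 and stress replicate 3 were the extremes. Levels are therefore given as CPM, read counts relative to a library size that was scaled by TMM (trimmed mean of M values), which centres the typical gene near no change. Markers of the blood cell types were present as the label peripheral blood implies. Of 6 markers of other tissues, Alb of hepatocytes had at most 3 counts in any sample. Col1a1 had 24 to 78 counts and Cdh5 1 to 29, and neither passed an adjusted p below 0.05 (edgeR). The 8 neutrophil markers summed to 186.1 to 368.2 CPM in control blood against 574.5 to 804.9 CPM in stressed blood, and 8 of 8 were higher and 7 passed an adjusted p below 0.05. The 6 classical monocyte and 6 platelet markers were also all higher, and 5 and 6 of them passed. Monocyte markers summed to 316.5 to 439.0 CPM against 668.4 to 1107 CPM after stress, and platelet markers to 1120 to 1687 CPM against 2495 to 3246 CPM. The 6 B cell markers ran the other way, from a control range of 845.8 to 1035 CPM to a stress range of 582.1 to 779.0, with 6 of 6 lower and 3 past the same threshold. Of the 6 T cell markers, 3 were higher, 3 were lower and 0 passed (edgeR, and 0 at an unadjusted p below 0.05). Of the 5 NK cell markers, 2 were higher and 3 were lower, and 1 passed as lower. Of the 7 erythroid markers, 6 were higher, 1 was lower and 0 passed. The study also counted blood cells by flow cytometry after the same restraint. It reported more neutrophils, and lower numbers of monocytes and of B, T and NK lymphocytes. The neutrophil and B cell markers ran in the direction of these counts. The monocyte markers ran against them, and the T cell markers showed no clear fall. The cause of this difference was not tested. From bulk RNA alone, fewer cells of a type and less RNA per cell cannot be told apart. The part of these markers in the values of the clock genes was not tested.

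The promoters of the clock genes carry the elements through which the loop is read, so the windows that held one are shown for a gene of each class. RefSeq windows of 300 bases (GRCm38.p6, 250 bases before and 50 after the transcript start) were found for 9 of the 10 genes, all except Per2. They were searched on both strands for the E-box CACGTG, the D-box TTANGTAA, the ROR and REV-ERB element TNGGTCA, the cyclic AMP response element TGACGTCA and the glucocorticoid response element, written as GNACA and TGTNC with 3 bases of any kind between them. Of 32851 windows of all genes, 7.15% held the E-box, 2.32% the D-box, 11.0% the ROR element, 1.79% the cyclic AMP element and 0.475% the glucocorticoid element. The capitals mark the matches, which did not overlap each other: the D-boxes and 1 ROR element in Per3, the E-box in Per1 and in Cry1, and the ROR elements in Arntl.
Per3, chr4:151044616-151044915, minus strand: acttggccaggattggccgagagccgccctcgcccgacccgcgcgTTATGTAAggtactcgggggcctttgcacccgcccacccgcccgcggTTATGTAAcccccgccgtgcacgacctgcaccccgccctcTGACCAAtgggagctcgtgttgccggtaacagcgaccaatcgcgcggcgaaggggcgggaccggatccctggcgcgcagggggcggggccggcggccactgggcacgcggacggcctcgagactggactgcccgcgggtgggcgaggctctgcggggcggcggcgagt
Per1, chr11:69098699-69098998, plus strand, first window: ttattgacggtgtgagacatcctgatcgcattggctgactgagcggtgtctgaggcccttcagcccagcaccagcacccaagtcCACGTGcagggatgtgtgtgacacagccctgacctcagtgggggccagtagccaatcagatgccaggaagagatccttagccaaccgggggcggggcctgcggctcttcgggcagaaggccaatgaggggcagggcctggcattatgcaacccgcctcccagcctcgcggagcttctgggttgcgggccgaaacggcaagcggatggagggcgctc
Cry1, chr10:85185005-85185304, minus strand: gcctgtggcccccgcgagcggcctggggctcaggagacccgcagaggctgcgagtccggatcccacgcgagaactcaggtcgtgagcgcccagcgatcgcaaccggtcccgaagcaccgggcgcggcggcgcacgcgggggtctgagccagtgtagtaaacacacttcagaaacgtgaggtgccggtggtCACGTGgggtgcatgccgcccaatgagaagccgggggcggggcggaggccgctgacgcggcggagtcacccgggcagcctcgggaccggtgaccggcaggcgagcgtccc
Arntl, chr7:113207215-113207514, plus strand, first window: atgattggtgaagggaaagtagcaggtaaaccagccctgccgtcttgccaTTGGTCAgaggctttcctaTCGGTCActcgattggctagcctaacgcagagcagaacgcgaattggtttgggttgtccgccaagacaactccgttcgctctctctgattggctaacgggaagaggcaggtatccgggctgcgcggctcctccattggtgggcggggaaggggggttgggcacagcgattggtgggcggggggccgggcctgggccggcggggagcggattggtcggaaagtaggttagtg
Per3 held 2 D-boxes, which began 205 and 158 bases before its start, and was the only one of the 9 genes with that element in its window. The E-box of Per1 began 166 bases before its start and that of Cry1 60 bases before. The window shown for Arntl held 2 ROR elements, at 200 and 181 bases before the start, a second window that overlaps it held 3, and the window of Cry2 held 1. The windows of Clock, Nr1d1, Nr1d2 and Dbp matched none of the 5 motifs, and none of the 9 genes matched the glucocorticoid element. A match is a string of letters and not a measured binding site, and its absence says only that these letters are not in this window.

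Levels can be compared between genes only per length, here as CPM per kilobase of annotated exons. That length joins the exons of all annotated transcripts, such as 13727 bases for Clock and 3340 for Cry1. The transcripts present in blood were not determined, so the order between genes depends on this length. On that scale Cry1 (2.63 ± 0.040, SD, n = 4), Nr1d2 (2.44 ± 0.225) and Per1 (2.34 ± 0.253) were the most abundant of the 10 in control blood, and neighbours in that order differed by less than the SD of Nr1d2. Arntl (0.866 ± 0.101), Dbp (0.830 ± 0.071), Clock (0.789 ± 0.054) and Cry2 (0.749 ± 0.191) formed a middle group whose neighbours did not differ beyond their SD. Per2 followed with 0.535 ± 0.114 CPM per kilobase, then Nr1d1 with 0.343 ± 0.057 and Per3 with 0.222 ± 0.014. In the stress group the order began with Cry1 (2.90 ± 0.574), Per1 (2.45 ± 0.535) and Nr1d2 (1.91 ± 0.391) and ended again with Nr1d1 (0.307 ± 0.130) and Per3 (0.111 ± 0.072). The coefficient of variation had a median over the 10 genes of 10.02% among control samples and 20.4% among stress samples, against 11.4% and 19.2% for all tested genes.

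To ask whether restraint moved the clock, the groups were compared with edgeR's quasi-likelihood test over all tested genes. None of the 10 genes passed an adjusted p below 0.05, a threshold that 14.1% of all tested genes passed (10.4% as higher and 3.69% as lower). None passed the study's thresholds either, an absolute log2 fold change above 1 with an adjusted p below 0.01, which 1.71% of all tested genes did (1.69% higher and 0.0171% lower). At an unadjusted p below 0.05, 0 clock genes were higher and 2 were lower, Per3 and Nr1d2. Of all tested genes 31.1% passed at that level, 2127 as higher and 1523 as lower. DESeq2 also called 0 of the 10 at an adjusted p below 0.05, and limma-voom called 1, Per3, as lower (adjusted p = 0.0429). Of all tested genes, limma-voom called 450 of 11718 as lower and DESeq2 596 of 12532. Of the 10 log2 fold changes 8 were below 0 and 2 above, with a median of -0.17 against -0.03 for all tested genes. The groups did not overlap for 2 of the 10 genes, Clock and Per3, both with stress below control, an order that 9.88% of all tested genes had, while 11.1% had stress above control.

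**Figure D1:**
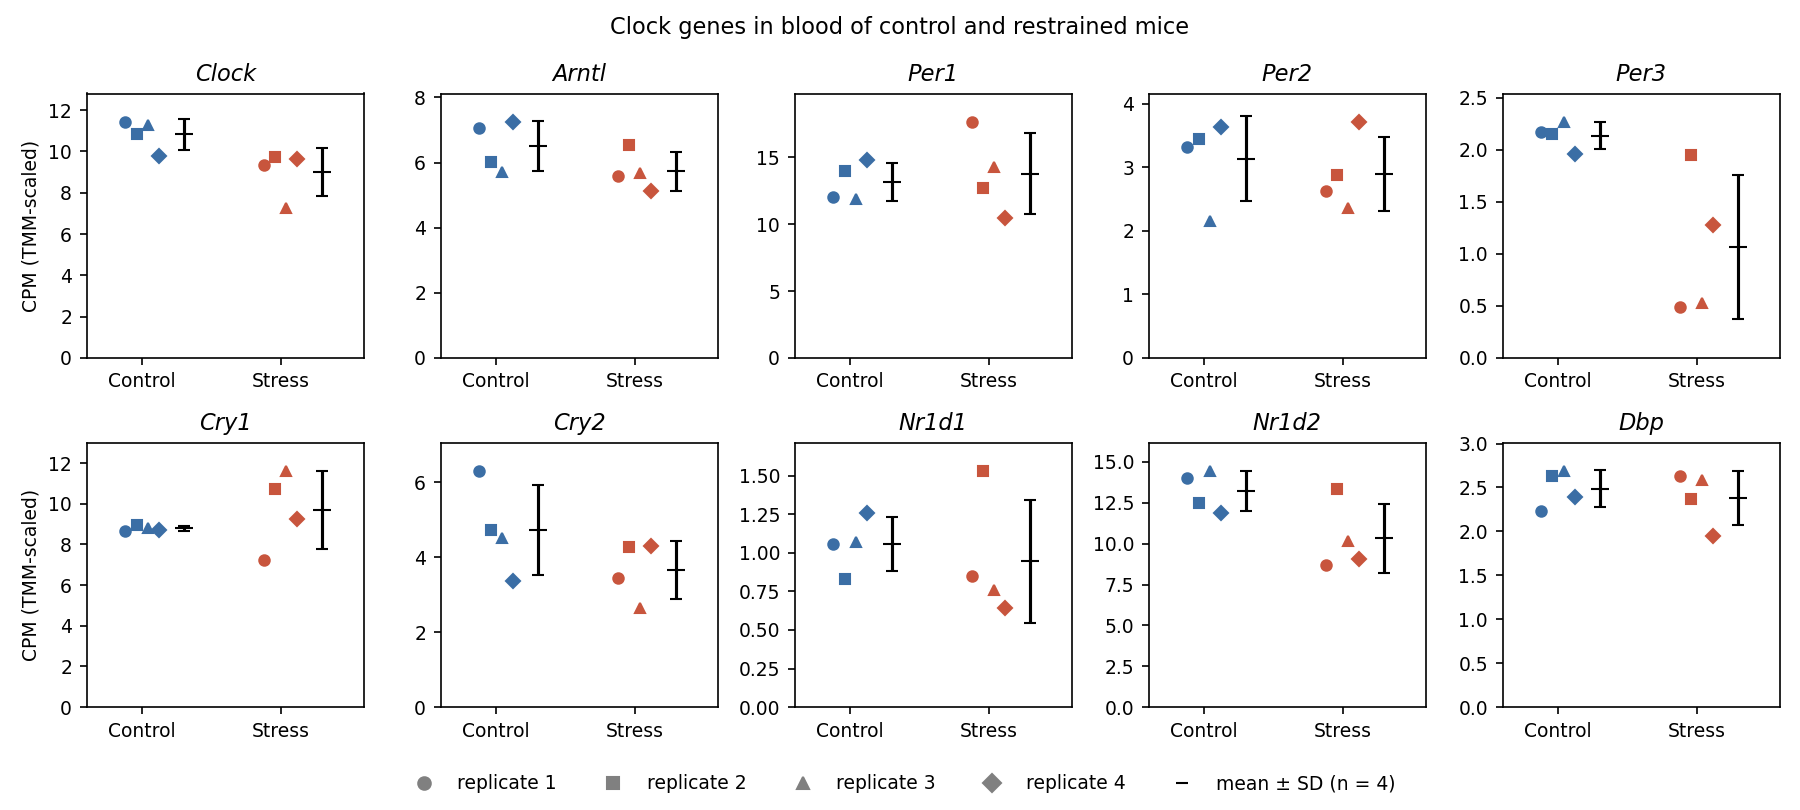
Level of each core clock gene in every sample, in TMM-scaled CPM (vertical axes from 0, 1 panel per gene), for the Control and Stress groups, with marker shapes for replicate numbers and black bars for the mean ± SD (n = 4). The groups overlap in 8 of the 10 panels, all except Clock and Per3, and in Per3 stress replicates 1 and 3 lie far below the other samples.

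Clock (chr5:76209868-76304792, minus strand, GRCm38) and Arntl (chr7:113207465-113314126, plus strand) encode the activators of the loop, and neither passed the test. Clock measured 11.4, 10.8, 11.3 and 9.77 CPM in control replicates 1 to 4 and 9.32, 9.74, 7.29 and 9.63 CPM in the stress replicates. Every stress sample lay below every control sample, by a margin of 9.74 against 9.77 CPM at the closest. Its log2 fold change was -0.26 (standard error 0.12, 95% interval -0.52 to 0.00, adjusted p = 0.165 from edgeR). Arntl measured 7.06, 6.02, 5.72 and 7.25 CPM in the control samples and 5.57, 6.54, 5.69 and 5.12 CPM in the stress samples, with overlapping groups. Gm45355, an antisense gene, shares 33 bases or 0.44% of the exon length of Arntl. The log2 fold change of Arntl was -0.18, with a 95% interval from -0.49 to 0.13 (edgeR, adjusted p = 0.411).

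Per1 (chr11:69095217-69109960, plus strand) and Per2 (chr1:91415982-91459324, minus strand), which encode repressors of the loop that respond to outside signals, did not pass in either direction. The intervals show what these samples leave possible, since a p that misses the threshold does not show that the groups were equal. Per1 measured 12.03, 13.97, 11.9 and 14.8 CPM in control blood and 17.7, 12.7, 14.3 and 10.5 CPM in stressed blood. The highest and the lowest of the 8 values were both stress samples, replicates 1 and 4. The estimate for Per1 was a 1.04-fold change with a 95% interval from 0.836 to 1.303 (log2 fold change 0.06, standard error 0.15, edgeR, adjusted p = 0.819). Per2 measured 3.31, 3.44, 2.15 and 3.63 CPM in the control samples and 2.63, 2.88, 2.35 and 3.71 CPM in the stress samples, so that the control group held the lowest value and the stress group the highest. Its interval ran from 0.681-fold to 1.303-fold (log2 fold change -0.09, edgeR, adjusted p = 0.826).

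Per3 (chr4:151003652-151044665, minus strand), the third Period gene, shares no exon bases with another annotated gene and had the largest absolute log2 fold change of the 10. It gave 80, 111, 157 and 62 counts in control replicates 1 to 4 and 11, 42, 7 and 40 counts in the stress replicates. In CPM these were 2.17, 2.15, 2.27 and 1.955 in control blood and 0.491, 1.948, 0.531 and 1.28 after stress. The control samples lay close together, stress replicates 1 and 3 lay far below them, and stress replicate 2 reached almost the lowest control sample, so the groups were barely apart. The 7 counts of stress replicate 3 have an exact 95% Poisson interval of 2.81 to 14.4 counts, or 0.214 to 1.09 CPM, which covers counting error only and stays below the control values. The log2 fold change was -0.96 (standard error 0.35, 95% interval -1.72 to -0.20), a level of 0.513 of control, and its adjusted p of 0.0829 from edgeR did not pass. Without stress replicate 2 the log2 fold change was -1.37 and passed (adjusted p = 0.0246), and without stress replicate 1 it was -0.69 (adjusted p = 0.185), the ends of the range over the 8 edgeR fits that left out 1 sample.

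Cry1 (chr10:85131700-85185064, minus strand) and Cry2 (chr2:92403646-92434043, minus strand), whose proteins bind CLOCK and ARNTL directly, had estimates of opposite sign and neither passed. Cry1 was nearly constant in the control group at 8.67, 8.96, 8.83 and 8.70 CPM and spread on both sides of these values after stress, at 7.22, 10.7, 11.6 and 9.25 CPM. Its coefficient of variation was 1.502% among control samples against 19.8% among stress samples. The exact 95% Poisson interval of control replicate 4, 7.71 to 9.79 CPM, held all 4 control values, so this control spread lies within counting error. The log2 fold change of Cry1 was 0.13 (95% interval -0.17 to 0.44, edgeR, adjusted p = 0.556). It ranged from 0.0599 without stress replicate 3 to 0.28 without stress replicate 1. Cry2 measured 6.30, 4.74, 4.52 and 3.37 CPM in the control samples and 3.43, 4.27, 2.66 and 4.29 CPM in the stress samples. Control replicate 1 stood highest and control replicate 4 fell among the stress samples. The log2 fold change of Cry2 was -0.35 (95% interval -0.81 to 0.10, edgeR, adjusted p = 0.277), and it was -0.19 without control replicate 1. D930015M05Rik, on the opposite strand, shares 295 bases or 4.67% of the exon length of Cry2, and reads from this overlap cannot be told apart without a stated strand setting.

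Nr1d1 (chr11:98767932-98775333, minus strand) and Nr1d2 (chr14:18204054-18239127, minus strand) encode REV-ERB alpha and REV-ERB beta, the repressors of Arntl. Nr1d2 measured 14.04, 12.5, 14.4 and 11.9 CPM in control blood and 8.70, 13.4, 10.2 and 9.09 CPM in stressed blood. Stress replicates 1, 3 and 4 lay below every control sample and stress replicate 2 lay among them. Its log2 fold change was -0.36 (standard error 0.14, 95% interval -0.66 to -0.06) and did not pass (edgeR, adjusted p = 0.102), while without stress replicate 2 it was -0.49 and passed (adjusted p = 0.0313, with a range over the fits that left out 1 sample up to 0.270). Nr1d1 had only 10 to 74 reads per sample and measured 1.06, 0.832, 1.07 and 1.26 CPM in control blood and 0.847, 1.53, 0.759 and 0.640 CPM in stressed blood. The highest and the lowest samples were both from the stress group. Its interval was wide, from 0.543-fold to 1.49-fold (edgeR, adjusted p = 0.796). Exons of Thra, the thyroid hormone receptor gene on the opposite strand, share 263 bases with Nr1d1, 8.55% of its exon length, and Thra gave 40 to 273 counts per sample. Reads from that stretch are uncertain in the same way.

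Dbp (chr7:45705088-45710203, plus strand), an output gene of the loop that is strongly rhythmic in many tissues, did not pass either. It measured 2.23, 2.63, 2.69 and 2.396 CPM in the control samples and 2.63, 2.37, 2.58 and 1.95 CPM in the stress samples. Of the stress samples only replicate 4 lay outside the control range. Its log2 fold change was -0.08 with a 95% interval from -0.49 to 0.34, or 0.713-fold to 1.26-fold (edgeR, adjusted p = 0.825). Sphk2, on the opposite strand, shares 539 bases or 18.01% of the exon length of Dbp and gave 168 to 792 counts per sample, so part of the Dbp reads is uncertain in the same way.

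**Figure D2:**
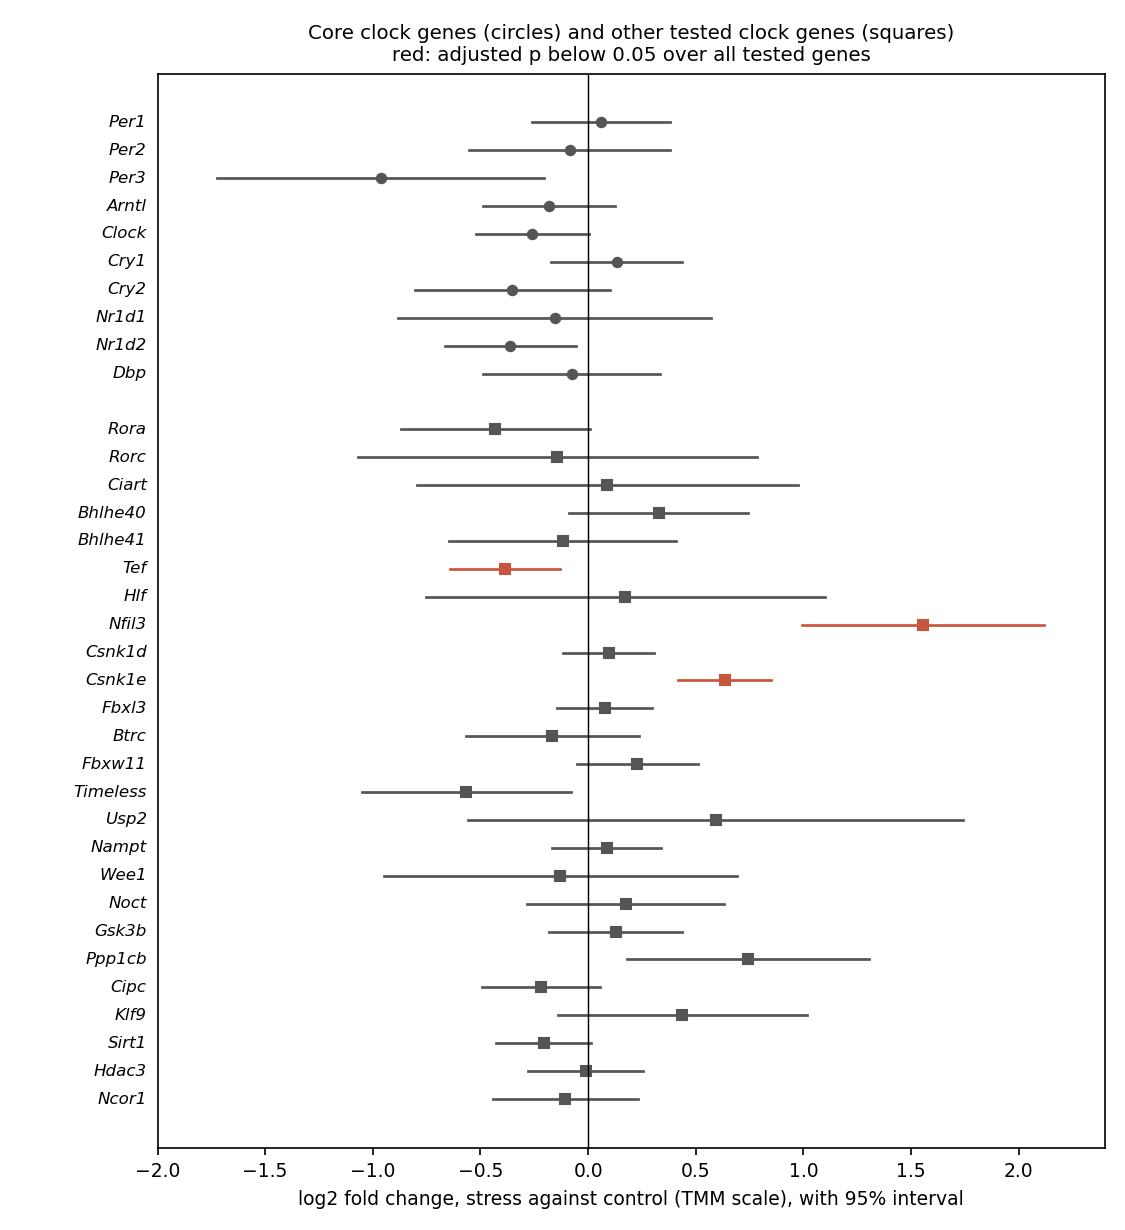
log2 fold change of stress against control on the TMM scale (horizontal axis) with its 95% interval for the 10 core clock genes (circles) and the 25 other tested clock genes (squares), red where edgeR's adjusted p over all genes was below 0.05. The 10 circles are grey and lie between -0.96 for Per3 and 0.13 for Cry1, and the red squares are Nfil3 at 1.56, Csnk1e at 0.63 and Tef at -0.39.

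A wider list of 29 clock genes held the partners, kinases, ligases and outputs around the core loop, and 25 of them had enough reads to be tested. Npas2, the paralogue of Clock, had at most 4 counts in any sample, Arntl2 at most 5 and Rorb 0, and Fbxl21 had at most 12. Of the 25 genes, 2 rose and 1 fell at an adjusted p below 0.05 (edgeR), and 1 rose past the study's thresholds, against 10.4%, 3.69% and 1.69% of all tested genes. The neutrophil, monocyte and platelet marker sums given above were higher and the B cell sum lower in the same stress samples, and their part in these values was not tested. The median log2 fold change was 0.09, with 14 genes above 0 and 11 below.

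Nfil3, which encodes the D-box repressor E4BP4, rose. It measured 1.17, 1.66, 1.21 and 1.45 CPM in the control samples and 5.84, 3.25, 2.43 and 4.45 CPM in the stress samples, without overlap. Its log2 fold change was 1.56 (standard error 0.26, edgeR, adjusted p = 0.0025), a 2.94-fold rise with a 95% interval from 1.99 to 4.35. On total counts alone the groups overlapped for Nfil3. Its log2 fold change on that scale was 0.82 and did not pass (edgeR, adjusted p = 0.0645, the highest over 17 alternatives, of which 16 passed). Without control replicate 3 its adjusted p was 0.0102, just short of the study's thresholds.

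The activators that share the D-box with E4BP4 are DBP, TEF and HLF. Tef fell, from 12.3, 12.98, 11.6 and 13.3 CPM in the control samples to 9.86, 11.2, 8.196 and 9.03 CPM in the stress samples, without overlap. Its log2 fold change was -0.39 (standard error 0.12, 95% interval -0.64 to -0.13), and it passed narrowly (edgeR, adjusted p = 0.045). With any one of the control replicates 1 to 4 or stress replicates 1, 3 and 4 left out, Tef did not pass (adjusted p between 0.0781 and 0.131), and with the replicate number as a block it did not either (0.0672), nor when all genes with at least 1 count were tested (0.0589). Hlf had only 4 to 21 counts per sample and a log2 fold change of 0.17 with a 95% interval from -0.76 to 1.10. Among the core genes with a window, Per3 is the one with D-boxes, and Per2 had no window to search. Per3 itself did not pass (edgeR, adjusted p = 0.0829). The values of Nfil3, Dbp, Tef, Hlf and Per3 stand side by side in the plot of D-box factors, and a link between them was not tested.

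**Figure D3:**
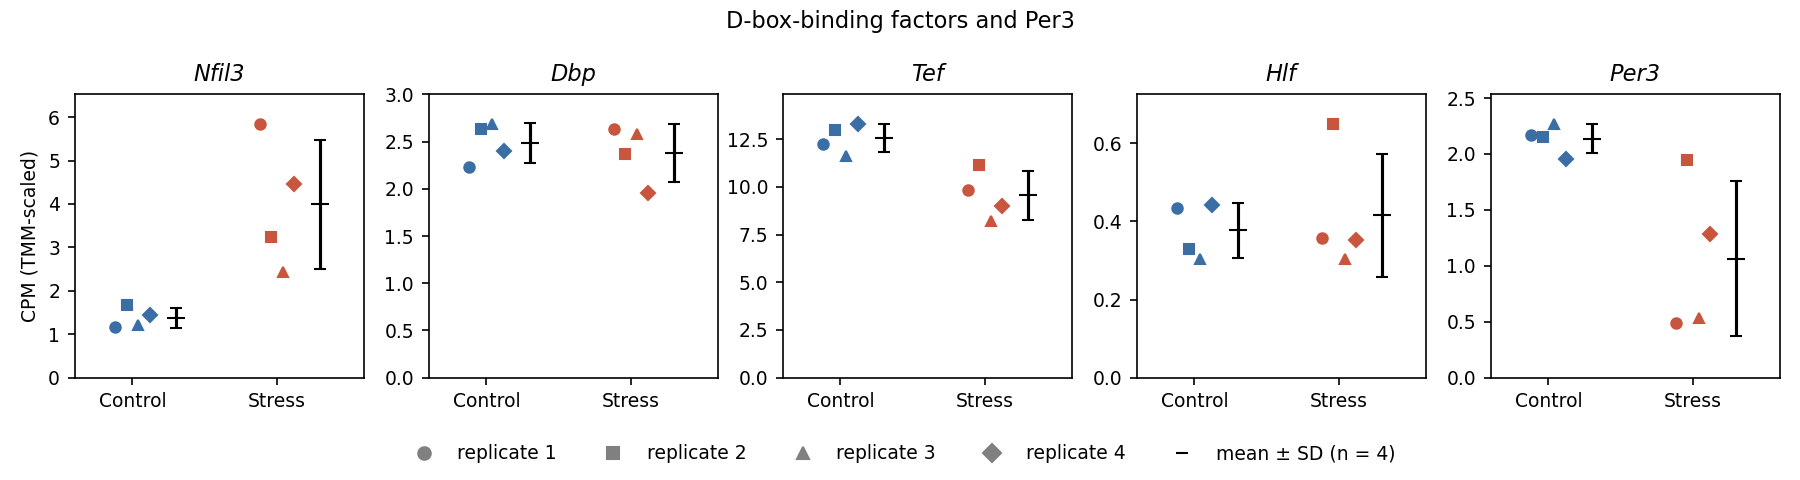
Level in every sample, in TMM-scaled CPM (vertical axes from 0), of the D-box repressor gene Nfil3, the D-box activator genes Dbp, Tef and Hlf, and Per3, with black bars for the mean ± SD (n = 4 per group) and marker shapes for replicate numbers. Nfil3 is higher in each stress sample than in any control sample, Tef is lower in each, and Dbp and Hlf overlap.

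Csnk1e, the casein kinase that marks PER proteins for degradation, also rose. It measured 14.1, 12.9, 14.2 and 14.9 CPM in control blood and 22.03, 21.75, 23.8 and 19.7 CPM in stressed blood, without overlap. The log2 fold change was 0.63 (standard error 0.10, 95% interval 0.42 to 0.85, edgeR, adjusted p = 0.00188). On total counts alone the log2 fold change was -0.17 and the groups overlapped. The median of all tested genes on that scale was -0.82. Its paralogue Csnk1d, at 41.7 ± 2.16 CPM in control blood and 44.5 ± 3.31 CPM in stressed blood (SD), did not pass (log2 fold change 0.10, edgeR, adjusted p = 0.543). Ppp1cb, a phosphatase subunit gene, had a log2 fold change of 0.74 (edgeR, adjusted p = 0.0737, and 0.0232 from DESeq2, which passed). Timeless, a gene linked to the replication fork, had one of -0.57 (edgeR, 0.108) and Rora, the activator of Arntl at ROR elements, one of -0.43 (edgeR, 0.167).

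**Figure D4:**
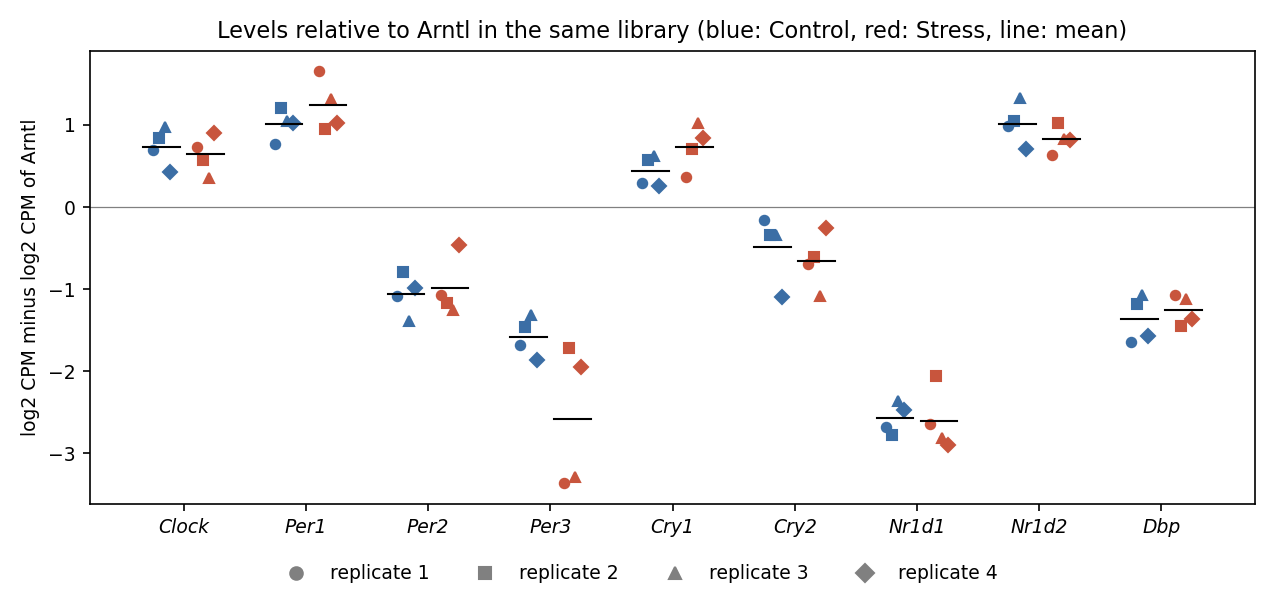
log2 CPM of each core clock gene minus log2 CPM of Arntl in the same library (vertical axis), with 1 point per sample, blue for Control and red for Stress, marker shapes for replicate numbers and a line at each group mean. The groups overlap for each of the 9 genes, and for Per3 stress replicates 1 and 3 lie at -3.36 and -3.29.

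A second reading of the loop hardly depends on how libraries are scaled, which enters only through the prior count. In each library the log2 CPM of Arntl was subtracted from that of the other 9 genes, and the groups were compared with a two-sided exact permutation test over 70 assignments of the 8 samples, whose smallest p is 0.0286. After adjustment over the 9 pairs, 1 pair alone at that smallest p would have an adjusted p of 0.257, and 6 pairs would have to reach it for any to pass, so these differences are given as a description and the adjusted p-values decide nothing about a single gene. Per3 lay at -1.67, -1.46, -1.31 and -1.86 relative to Arntl in the control samples and at -3.36, -1.72, -3.29 and -1.95 in the stress samples, a difference of -1.002 between the group means (exact permutation test, p = 0.0571, adjusted over the 9 pairs 0.514). Stress replicate 2 lay inside the control range. Against Arntl, the difference between group means was 0.23 for Per1, 0.30 for Cry1, -0.03 for Nr1d1, -0.19 for Nr1d2 and 0.12 for Dbp (exact permutation test, p between 0.114 and 0.886 unadjusted).

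**Figure D5:**
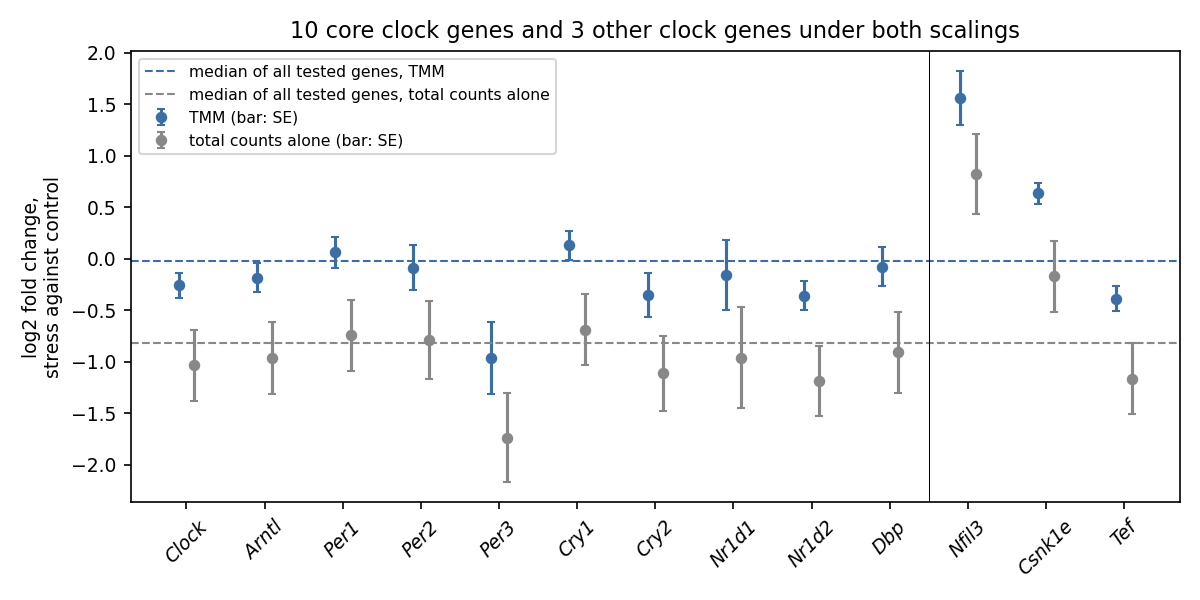
log2 fold change of stress against control with its standard error (vertical axis) for the 10 core clock genes and for Nfil3, Csnk1e and Tef, with libraries scaled by TMM (blue) or by total counts alone (grey), and dashed lines at the median of all tested genes on each scale. The grey points lie below the blue ones by about the gap between the dashed lines, and Per3 is the lowest of the plotted genes on both scales.

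The number of clock genes called depended on the scale. With total counts alone, all 10 core genes had a negative log2 fold change and 6 passed an adjusted p below 0.05 as lower. On that scale 10549 of the 11718 tested genes had a negative log2 fold change and 5811 passed as lower. The median of all tested genes was -0.82 instead of -0.03. The groups did not overlap, with stress below, for 5 of the 10 (Per3, Arntl, Nr1d1, Nr1d2 and Dbp), as for 23.5% of all tested genes, and for 0 with stress above (0.247% of all). Against that median, Per3 at -1.74 was furthest down. Nr1d2 (-1.19), Cry2 (-1.11), Clock (-1.04), Arntl (-0.96), Nr1d1 (-0.96) and Dbp (-0.91) were also below it. Per2 (-0.79), Per1 (-0.74) and Cry1 (-0.69) were above it. On that scale control replicate 3 held the highest value for 9 of the 10 genes and stress replicate 3 the lowest for 9, the libraries with 51.9% and 75.5% haemoglobin reads. With TMM these libraries were highest for 3 and lowest for 2 of the 10.

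Per3 had the smallest p of the 10 genes, and the tested genes whose log2 CPM followed it most closely over the 8 samples were Tbc1d22b, Snapc4, Asb13, Nat10 and Luc7l, with Pearson correlations from 0.977 to 0.985. These points share libraries and groups, and the correlations describe these samples only. Their log2 fold changes ran from -0.54 for Asb13 to -0.25 for Tbc1d22b, values that follow in part from choosing genes that track Per3 and are given with no test.

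Since Per1 is a target of the glucocorticoid receptor, its value was set beside 12 other genes that glucocorticoids induce, 9 of them tested. Cebpd, a myeloid transcription factor gene, rose from 5.38 ± 1.43 CPM in control blood to 14.3 ± 2.12 CPM in stressed blood (SD), a log2 fold change of 1.43 (edgeR, adjusted p = 0.0009). On total counts alone it was 0.73 and did not pass (edgeR, 0.0595). Sgk1, a kinase gene, had a log2 fold change of 0.27 (edgeR, adjusted p = 0.0936) and Dusp1, a phosphatase gene, one of 0.77 (edgeR, 0.135), and neither passed. Of the 10 tested genes of the list, Per1 included, 7 had a log2 fold change above 0 and 3 below, with a median of 0.22, and 1 passed as higher, near the 10.4% of all tested genes.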

How the data were processed

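Sequencing libraries came from peripheral blood RNA of 8 samples. The counts deposited by the authors are whole reads for each symbol, not normalized, and the submitters' processing notes name HISAT2, featureCounts and the mm10 build. Versions, annotation, strand setting and filters are not given in the sources used here.

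A gene was tested if 4 or more samples each had 10 or more counts (11718 of 21878). They were fitted with edgeR 4.0.16 in R 4.3.3 (TMM, robust quasi-likelihood test, Benjamini-Hochberg adjustment over all tested genes). The log2 CPM used a prior count of 2. Intervals of fold changes are 95% intervals from the same fit. The script was tested on simulated data. Coordinates and exon lengths come from GENCODE M21 of GRCm38 and promoter windows from RefSeq (GRCm38.p6). Windows were matched by symbol to 9084 of the tested genes.

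Alternatives were DESeq2 1.42.0, limma-voom (limma 3.58.1), other normalizations, count filters (at least 1 count in all, or at least 10 in every sample), leaving out haemoglobin genes or each sample, and a replicate block. The 10 clock genes and all gene lists were chosen with earlier results of these data known. All 10 were named. Of the wider clock list, the genes with an adjusted p below 0.05 and the 3 with the smallest p in each direction were named, of the glucocorticoid-induced genes the 3 with the smallest p, and beside them the 5 genes most like Per3 and the genes on the other strand that share exon bases with a member. Further genes of these lists were named after their values were seen, because they were untested, are markers of other tissues or bear on the D-box. Csnk1d was also named after its value was seen, as the paralogue of Csnk1e.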

Additional observations from a re-analysis of the deposited data

Results flagged for a closer look

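The level of Clock in stress replicate 3, 7.29 CPM, stood apart from the other 3 stress samples, which lay between 9.32 and 9.74 CPM, and its gap was just above the limit of Dixon's test for 4 samples (a share of 0.8292 of the range). Among 32 groups of 4 samples examined, for the 10 core clock genes and 6 other clock genes, it was the 1 so flagged, and chance flags about 1 group in 20. Without stress replicate 3 the log2 fold change of Clock was -0.16 (edgeR, adjusted p = 0.32). Over 16 alternative fits with edgeR, limma-voom or DESeq2 its adjusted p ranged from 0.134 to 0.322. On total counts alone it was 0.0151 (edgeR).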

How the results depend on the processing

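Scaling by total counts alone changed most: 6 core clock genes instead of 0 passed an adjusted p below 0.05, and 2 instead of 0 passed the study's thresholds. Of the other clock genes 8 instead of 3 passed, and all of these calls were lower. Among the 10 core genes and 6 named other clock genes, the log2 fold changes of Per1 (-0.74), Cry1 (-0.69), Csnk1e (-0.17) and Ppp1cb (-0.0271) changed sign. So did Nr1d1 relative to Arntl (0.0161). Of all 25 other tested clock genes, 1 was higher and 24 were lower, against 14 and 11 with TMM. On this scale 5811 of the 11718 tested genes passed as lower, 728 of them past the study's thresholds, and the median of all genes shifted to -0.82. With limma-voom 1 core gene passed, Per3, as lower, as did 450 of the 11718 tested genes. Per2 had a log2 fold change of 0.0212 with limma-voom (the cause was not tested). With 1 sample left out in turn, 0 to 2 core genes passed (2 as lower without stress replicate 2) and 0 core genes passed the study's thresholds. From 2 to 3 other clock genes passed, among them Timeless without stress replicate 1 and Ppp1cb without stress replicate 4. Of the 11718 tested genes, these fits called 618 to 1421 as higher and 78 to 718 as lower, and 974 and 196 without stress replicate 2. In those fits the log2 fold change ran from -0.0589 to 0.18 for Per1, from -0.24 to 0.0122 for Per2, from -0.47 to 0.0168 for Nr1d1 and from -0.12 to 0.0170 for Dbp, and relative to Arntl from -0.10 to 0.16 for Per2, from -0.19 to 0.00382 for Clock and from -0.21 to 0.0656 for Nr1d1. The replicate numbers showed no sign of pairing (correlations of same-numbered samples from -0.16 to 0.06, with 1 of 4 control samples closest to its own number). With 4 samples per group, this check cannot exclude it. Testing all genes with at least 1 count left 2 other clock genes, without Tef. A fit with the replicate number as a block called 0 core clock genes and 2 other clock genes, without Tef. The 7 counts of Per3 in 1 sample and the 10 of Nr1d1 limit what could be detected for both genes.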

Other observations

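Across the 8 samples, after the group mean was taken off, the 10 core clock genes did not vary as one unit. Of the 45 pairs 26 had a positive correlation of log2 CPM, with a median of 0.12. The highest were Clock with Cry2 (0.86), Arntl with Nr1d1 (0.76) and Nr1d1 with Nr1d2 (0.70), and the lowest were Dbp with Per2 (-0.75) and Per1 with Per3 (-0.70). These points share library and depth and are given as a description.

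Over all tested genes, the clock genes included, 172 held the D-box in a promoter window, and 19 of them (11.05%) were higher and 11 (6.40%) lower at an adjusted p below 0.05 (edgeR), with a median log2 fold change of -0.03. Among the 9084 tested genes with any window these shares were 10.3% and 3.90%, with a median of -0.03. The 1068 genes with an E-box had 9.08% higher and 3.65% lower (median -0.03), and the 1041 with a ROR element 10.6% and 4.32% (median -0.02). For the cyclic AMP element these were 6.99% and 1.82% of 329 genes (median -0.04), and for the glucocorticoid element 4 and 1 of 28 genes (median -0.09).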
